A study of Mus musculus with 12 samples.

Results

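The mRNA abundance of the NF-κB subunits and their inhibitors was followed through an etoposide-induced DNA damage response in B cells. The members were the rows of the normalized count table named Rel, Rela, Relb, Nfkb1, Nfkb2, Nfkbia, Nfkbib, Nfkbie, Nfkbiz and Tnfaip3, which gave 10 of the 29486 genes listed. All 10 members were among the 15507 genes with a value of at least 10 in at least 4 libraries. Splenic B cells of C57BL/6Babr mice, isolated with a Miltenyi kit, were activated with LPS at 10 µg/ml, and polyA mRNA was sequenced from 4 libraries in each of 3 conditions. LPS cells received LPS for 48 h. LE cells received LPS for 48 h and then etoposide, a topoisomerase II inhibitor that causes DNA double strand breaks, at 20 µM for 4 h. LEKU cells received LPS for 47 h, then the ATM kinase inhibitor KU55933 at 10 µM for 1 h, and then etoposide at 20 µM for 4 h. All 3 conditions carried LPS, no condition held KU55933 without etoposide, and the labels leave unsaid whether the LPS cells were cultured for another 4 h before collection. The libraries of each condition carried Illumina indexes that no other condition carried, so that index and condition cannot be told apart.

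NF-κB factors are dimers of 5 related subunits. RelA, c-Rel and RelB (Rela, Rel and Relb) carry a transactivation domain, whereas Nfkb1 and Nfkb2 encode precursors that are processed into DNA-binding subunits without one. IκB proteins hold the dimers in the cytoplasm until the IKK kinases mark them for degradation, and the Toll-like receptor for LPS signals through this route in B cells. DNA double strand breaks can also reach IKK from the nucleus, through the kinase ATM and the IKK subunit NEMO. Many inhibitors are themselves NF-κB target genes, which gives the pathway its negative feedback.

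The deposited values limit what can be said of each difference. Within a condition, the ratio of any library to the first was the same for every gene to within 2.68e-14 on the log2 scale, and no value was 0. The values are means fitted per condition and multiplied by a library factor, so they hold no spread between replicates, and no test between conditions was possible. The DESeq2 fit of the authors can also moderate differences toward 0. Each condition therefore has 1 value per gene, given here as a scaled normalized count, which is the deposited value divided by the library factor. A log2 difference is given with the counting error (SE) of the summed values, a lower limit of the true error that leaves out the biological spread, and a gene was counted as past the fold at 1.5-fold or more in either direction. In units of 1000000, the column totals ran from 20.7 to 23.9 in LPS, from 22.5 to 30.6 in LE and from 20.4 to 25.1 in LEKU. In bulk libraries, fewer cells of a type and less RNA per cell cannot be told apart.

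The promoters of 7 members were in the RefSeq table used (GRCm38.p6); Nfkb1, Relb and Nfkbiz had no entry. The 250 bases before each start were searched on both strands for the consensus κB site, the decamer bound by NF-κB dimers, and overlapping matches were joined. At least 1 match lay in 7 of the 10 member windows, from 5 members (Rel, Nfkb2, Nfkbia, Nfkbie and Tnfaip3), while 7.25% of all 32851 windows held one. The windows of Rela and Nfkbib held no match. The following stretches of 30 bases, read on the strand of the gene with the match in capitals, are shown because members of this family are known as NF-κB targets; a match is a description of letters, not of binding.
Rel (chr11:23771041-23771070, minus strand): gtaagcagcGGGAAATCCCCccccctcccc
Nfkb2, first start (chr19:46304689-46304718, plus strand): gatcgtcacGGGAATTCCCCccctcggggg
Nfkb2, the third start (chr19:46305695-46305724, plus strand): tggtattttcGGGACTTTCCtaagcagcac
Nfkbia (chr12:55492657-55492686, minus strand): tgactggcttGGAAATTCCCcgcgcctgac
Nfkbie (chr17:45555584-45555613, plus strand): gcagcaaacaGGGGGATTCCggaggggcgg
Tnfaip3 (chr10:19015411-19015440, minus strand): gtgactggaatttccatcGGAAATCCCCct

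The matches of Rel lay 82 to 92 bases before the start, that of Nfkbia 20 to 29 bases, that of Nfkbie 97 to 106 bases and the one shown for Tnfaip3 3 to 12 bases. Tnfaip3 held another match 116 to 125 bases before the start, and the first start of Nfkb2 another 2 to 11 bases before it. The upstream window of Nfkbie, the member that differed most between LEKU and LE, is given whole with its match in capitals (chr17:45555450-45555699, plus strand).
Nfkbie: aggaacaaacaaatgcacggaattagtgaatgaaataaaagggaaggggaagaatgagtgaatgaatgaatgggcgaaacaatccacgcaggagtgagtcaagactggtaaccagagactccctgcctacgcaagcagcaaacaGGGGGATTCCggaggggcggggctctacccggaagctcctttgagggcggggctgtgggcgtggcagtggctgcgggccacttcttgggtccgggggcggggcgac

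All members were well expressed. The mean value over the 3 conditions ran from 885 for Nfkbib to 8365 for Nfkb2, and each mean was higher than those of at least 62.4% of the genes kept. Per kilobase of the principal transcript (the APPRIS choice in GENCODE M21), the order of levels in LPS was Nfkbia at 4569 scaled normalized counts, Nfkb1 at 3092, Nfkb2 at 2043, Nfkbiz at 1229, Nfkbie at 1207, Tnfaip3 at 1198, Rela at 838, Relb at 802, Rel at 461 and Nfkbib at 422. Nfkbiz, Nfkbie and Tnfaip3 were close to one another in that order, and with no spread their order cannot be judged beyond counting error. In LEKU the order was Nfkbia at 5579, Nfkb2 at 3115, Nfkbiz at 1623, Nfkbie at 1495, Nfkb1 at 1487, Tnfaip3 at 1343, Relb at 1109, Rela at 1034, Rel at 753 and Nfkbib at 446. Nfkb1 was thus second of the 10 in LPS and the fifth in LEKU, while Nfkbia stayed first and Nfkbib last. With the union of all annotated exons as the length, Nfkbia and Nfkbib kept these places, and Nfkb1 was the third in LPS and the ninth in LEKU.

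**Figure D1:**
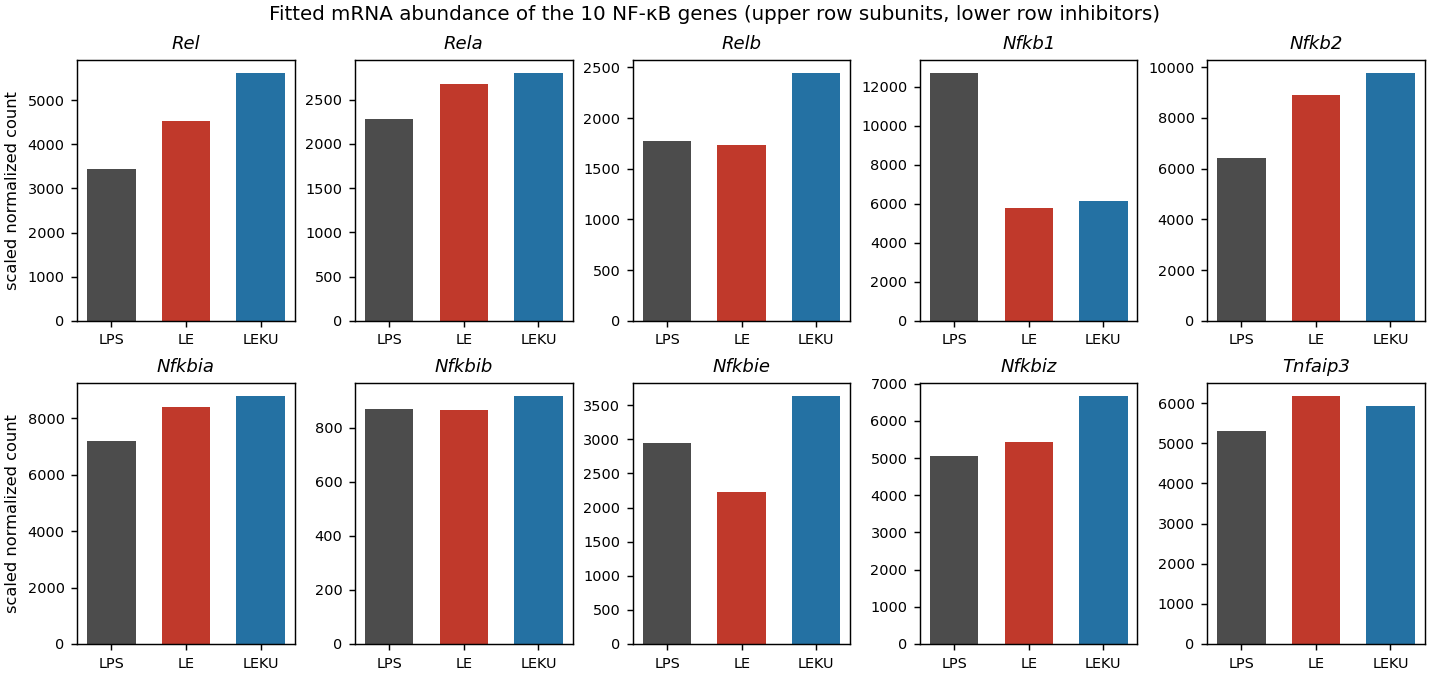
Bars give the scaled normalized count (vertical axis, linear, from 0, its own range in each panel) of each member in LPS, LE and LEKU, with no error bars because each condition has 1 fitted value. Nfkb1 stood at 12732 in LPS and at 5788 and 6122 in LE and LEKU, Rel stood at 3444, 4523 and 5625, and Nfkbie was lowest in LE.

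The B cell identity of the libraries was checked with markers. The 6 B cell markers summed to 133634 scaled normalized counts in LPS, 73156 in LE and 82567 in LEKU. Of these, 5 of the 6 were lower in LE than in LPS by 1.5-fold or more, as were 16.2% of all genes kept. The 4 plasma cell markers summed to 14039.5 in LPS, 14115 in LE and 9996 in LEKU, with Sdc1 at 138 in LPS, 1954 in LE and 636 in LEKU. In LE against LPS, Sdc1 and Jchain lay at 3.81 and 0.39 on the log2 scale, and Xbp1 and Prdm1 at -0.52 and -0.46. The 6 macrophage markers summed to 418, 468 and 431 and differed in both directions: in LE against LPS, Cd14, Csf1r, Cd68 and Lyz2 lay at 2.03, 1.13, 1.01 and 0.47 on the log2 scale, and Itgam and Adgre1 at -0.77 and -0.11. The defining markers Csf1r and Adgre1 stood at 4.18 and 49.0 in LPS. The red blood cell markers summed to 218, 185 and 115. The T cell markers summed to 11.1, 22.7 and 14.7 and the neutrophil markers to 4.51, 19.6 and 9.13, with Cd3e and S100a8 under 2 in every condition. The part of the lower B cell markers in the differences of the members was not tested.

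Etoposide was compared with LPS alone first, to ask which members differed after DNA damage. As a check of the damage response, the p53 target genes Cdkn1a (a cell cycle inhibitor), Mdm2 (the p53 ubiquitin ligase) and Bbc3 (a pro-apoptotic BH3-only protein) were higher in LE than in LPS by 5.03, 2.66 and 2.11 on the log2 scale. Of the 10 members, 1 was lower in LE by 1.5-fold or more and 0 were higher, where 16.2% of all genes were lower and 21.9% higher by that much. The median log2 difference of the members was 0.16 and that of all genes kept was -0.01. The shares over all genes depended on the scaling, with 16.9% higher and 21.3% lower after quantile normalization and 25.2% higher and 11.9% lower with column totals as factors.

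Nfkb1 was the member past the fold. The deposited values of the 4 LPS libraries were 10407, 11546, 12010 and 10822, those of the LE libraries 5624, 6303, 7634 and 6111, and those of the LEKU libraries 5554, 6263, 6710 and 6820. Within a condition these follow the library factor alone, so that the LPS values lying above all others is a statement about the fitted means. After scaling, Nfkb1 stood at 12732 in LPS and 5788 in LE, which is 0.455 times the LPS value and a log2 difference of -1.14 (counting SE 0.01). Only 4.28% of the genes kept had a lower log2 difference. Under the 9 alternative scalings, pseudocounts and filters the difference ran from -1.23 to -0.83, past the fold in each.

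Nfkb1 is also the longest member. It spans 106.9 kb on chromosome 3 (135584655 to 135691547, minus strand, GRCm38), whereas the other members span 3.24 to 34.1 kb. Of the 1360 kept genes whose span was at least that of Nfkb1, 429 (31.5%) were lower in LE by 1.5-fold or more and the median log2 difference was -0.27. The median was -0.00 for genes spanning under 5 kb and 0.03 for those of 5 to 10 kb. The part of gene span in the Nfkb1 difference was not tested.

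The other precursor gene, Nfkb2, differed in the other direction. It stood at 6418 scaled normalized counts in LPS and 8894 in LE, 1.39 times the LPS value, with a log2 difference of 0.47 (counting SE 0.01) that lay under the fold. Nfkb2 lies on chromosome 19 (46304320 to 46312385, plus strand) and spans 8.07 kb. Rel, which encodes c-Rel, the subunit best known for its role in lymphocytes, stood at 3444 in LPS and 4523 in LE, a log2 difference of 0.39 (counting SE 0.02). Rela was closer, with 2277 in LPS and 2675 in LE (log2 difference 0.23, counting SE 0.02). Relb, the partner of the Nfkb2 product in the non-canonical pathway, was at 1771 and 1731, a log2 difference of -0.03 (counting SE 0.02) whose sign turned under 3 of the 9 alternatives.

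Because members measured in the same libraries share a library factor, ratios between them do not depend on it. The ratio of Nfkb2 to Nfkb1 values was 0.504 in LPS, 1.54 in LE and 1.60 in LEKU. Per kilobase of transcript it was 0.661 in LPS, 2.01 in LE and 2.10 in LEKU, so that Nfkb1 was the more abundant precursor mRNA in LPS and Nfkb2 in the other conditions. Within the 5 subunits, the share of the level per kilobase held by Nfkb1 was 42.7% in LPS, 21.3% in LE and 19.8% in LEKU. The share of Nfkb2 was 28.2% in LPS, 42.8% in LE and 41.5% in LEKU. The union of all annotated exons, which is 12061 bases for Nfkb1 against 4117 for its principal transcript, put Nfkb1 at 25.7%, 11.1% and 10.3% and Nfkb2 at 34.0%, 44.7% and 43.2%, so that on that length Nfkb2 was also above Nfkb1 in LPS. Per kilobase of transcript, the ratio of Rel to Rela was 0.550 in LPS, 0.615 in LE and 0.729 in LEKU, so that Rela was the more abundant of the pair in each condition, whereas the ratio of their values without regard to length was 1.51, 1.69 and 2.00.

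**Figure D2:**
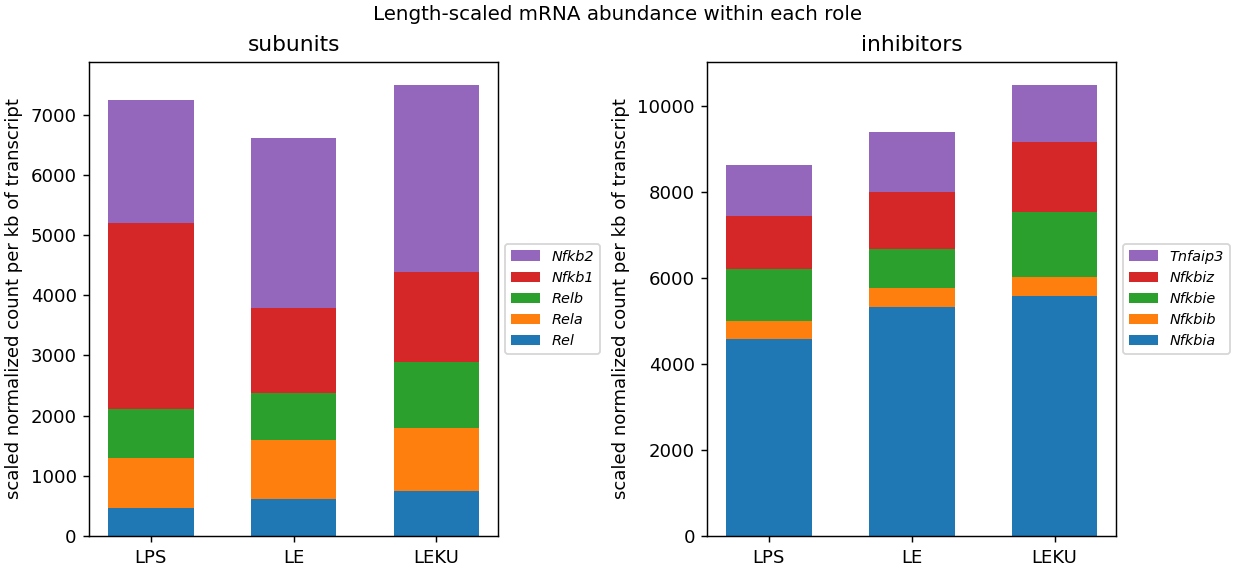
Stacked bars give the scaled normalized count per kilobase of principal transcript (vertical axis, linear, from 0) in LPS, LE and LEKU, for the 5 subunits on the left and the 5 inhibitors on the right. The Nfkb1 segment goes from 3092 in LPS to 1406 in LE and 1487 in LEKU, while Nfkb2 goes from 2043 to 2832 and 3115, and Nfkbia is the tallest inhibitor segment in every condition.

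None of the 5 inhibitors passed the fold in LE against LPS. Nfkbie, which encodes IκBε, stood at 2940 scaled normalized counts in LPS and 2231 in LE, 0.759 times the LPS value (log2 difference -0.40, counting SE 0.02). Nfkbia, which encodes IκBα, the inhibitor of the classical feedback loop, stood at 7210 and 8410 (log2 difference 0.22, counting SE 0.01). Tnfaip3, the ubiquitin-editing enzyme A20 that acts upstream of IKK, was close to that, with 5298 and 6192 (log2 difference 0.22, counting SE 0.01). Nfkbiz, a nuclear IκB that also acts as a co-activator, stood at 5055 and 5441 (log2 difference 0.11, counting SE 0.01). Nfkbib, which encodes IκBβ, stood at 869 and 867, and its log2 difference of -0.00 (counting SE 0.03) changed sign under 4 of the 9 alternatives.

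**Figure D3:**
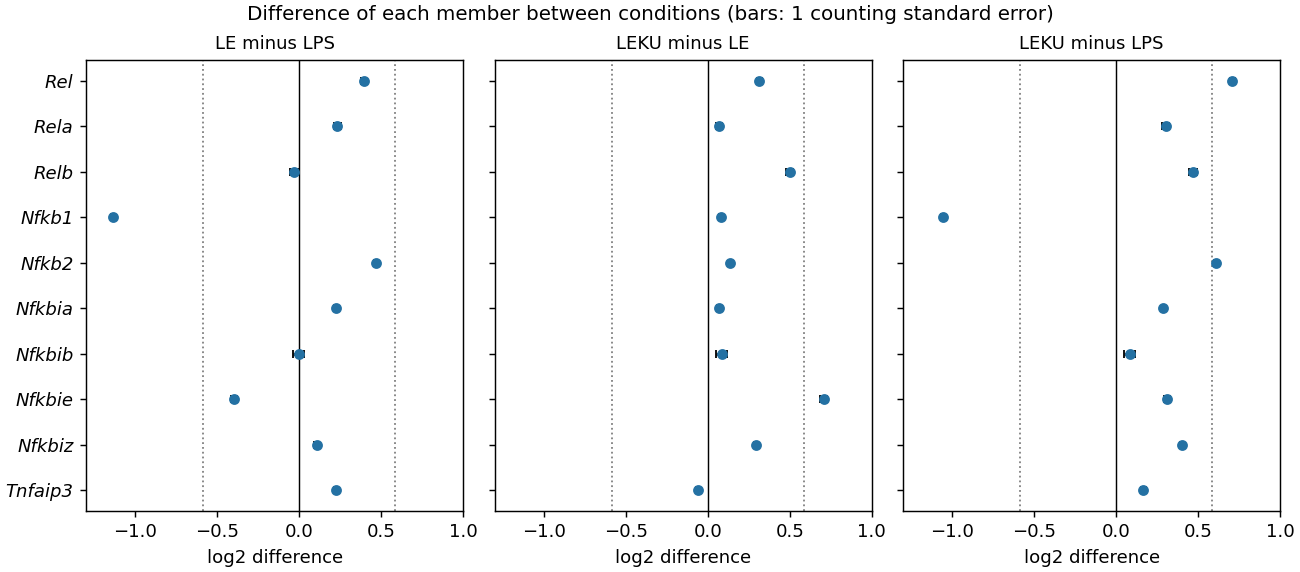
Points give the log2 difference (horizontal axis) of each member between the conditions named above each panel, bars 1 counting SE, which is often smaller than the point, and dotted lines the 1.5-fold limits. Nfkb1 lies at -1.14 in LE minus LPS and -1.06 in LEKU minus LPS, Nfkbie at 0.71 in LEKU minus LE is the only member past the fold there, and Rel at 0.71 and Nfkb2 at 0.61 lie past it in LEKU minus LPS.

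LEKU was then compared with LE, to ask what differed when ATM had been inhibited before the same etoposide treatment. The p53 targets Cdkn1a, Mdm2 and Bbc3 lay at -0.32, -0.81 and 0.36 in LEKU against LE. They were still higher in LEKU than in LPS, by 4.71, 1.86 and 2.47 on the log2 scale. Of the 10 members, 1 was higher in LEKU by 1.5-fold or more and 0 were lower, where 7.16% of all genes were higher and 11.6% lower. The median log2 difference was 0.11 over the members and -0.04 over all genes. After quantile normalization 9.82% of all genes were higher and 10.0% lower. Of the members, 9 had a difference above 0 and Tnfaip3 one below it.

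Nfkbie differed most. Its deposited values were 2403, 2666, 2773 and 2499 in the LPS libraries, 2168, 2429, 2942 and 2355 in the LE libraries and 3303, 3725, 3990 and 4056 in the LEKU libraries. The LEKU values were the highest and the LPS and LE columns overlapped, but as for Nfkb1 each condition is 1 fitted mean times its library factors, so that this is no measure of replicate spread. After scaling, Nfkbie stood at 3641 in LEKU and 2231 in LE, 1.63 times the LE value, with a log2 difference of 0.71 (counting SE 0.02). Only 4.71% of the genes kept had a higher difference, and under the 9 alternatives it ran from 0.68 to 0.81. Against LPS, where it stood at 2940, LEKU was higher by 0.31 (counting SE 0.02), so that Nfkbie was lower than LPS in LE and higher than LPS in LEKU. The ratio of Nfkbia to Nfkbie values, which no library factor can move, was 2.45 in LPS, 3.77 in LE and 2.42 in LEKU.

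Relb was next. It stood at 2450 scaled normalized counts in LEKU and 1731 in LE, 1.42 times the LE value (log2 difference 0.50, counting SE 0.02), which lay just under the fold. Its LEKU value was also above that of LPS (log2 difference 0.47, counting SE 0.02). Rel stood at 5625 in LEKU and 4523 in LE (log2 difference 0.31, counting SE 0.01). Nfkbiz stood at 6679 and 5441 (log2 difference 0.30, counting SE 0.01).

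The 5 other members whose values were higher in LEKU than in LE differed by less. Nfkb2 stood at 9785 in LEKU and 8894 in LE (log2 difference 0.14, counting SE 0.01), and Nfkb1 at 6122 and 5788 (log2 difference 0.08, counting SE 0.01). Nfkbib, Rela and Nfkbia differed by 0.09, 0.07 and 0.07 on the log2 scale, with counting SEs of 0.03, 0.02 and 0.01. Tnfaip3 stood at 5940 in LEKU and 6192 in LE (log2 difference -0.06, counting SE 0.01), and this sign turned under 1 of the 9 alternatives. The single member that differed most was thus Nfkb1 between LPS and LE, and Nfkbie between LE and LEKU. Nfkb1 lay at -1.14 and 0.08, and Nfkbie at -0.40 and 0.71, in comparisons that share the LE libraries. Nfkbie and Rel, the latter at 0.39 and 0.31, were among the larger differences in both.

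**Figure D4:**
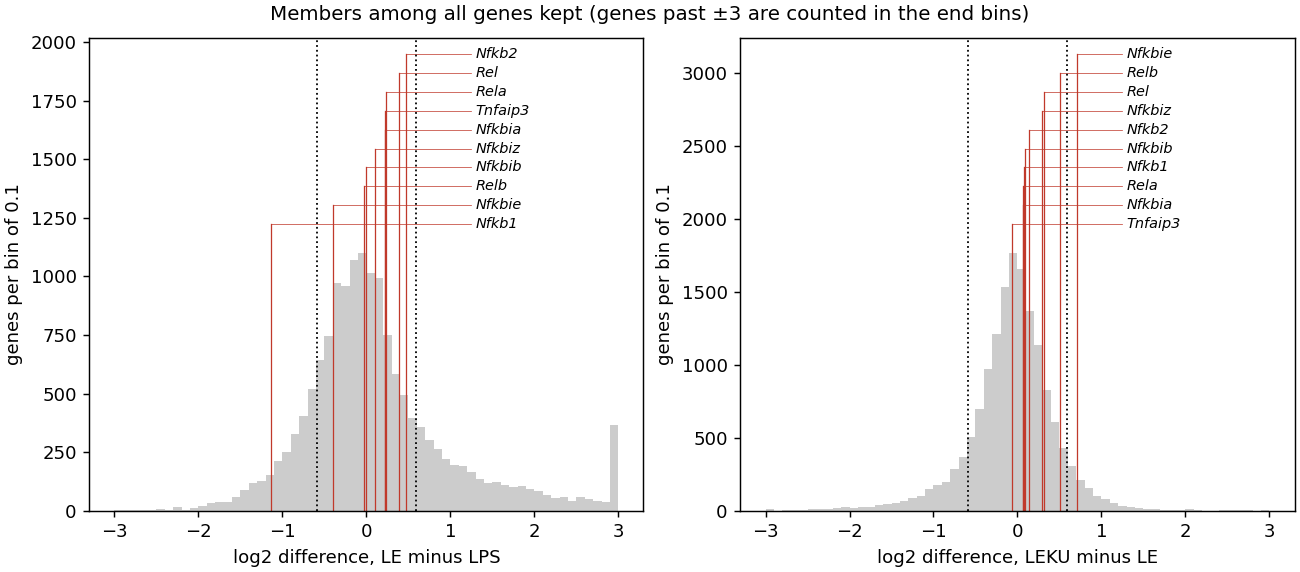
Histograms give the number of genes kept (vertical axis) per bin of the log2 difference (horizontal axis), LE minus LPS on the left and LEKU minus LE on the right, with a red line for each member and dotted lines at 1.5-fold. In LE minus LPS, Nfkb1 at -1.14 lies in the lower tail and the other members lie between -0.40 and 0.47, and in LEKU minus LE, Nfkbie at 0.71 lies in the upper tail.

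LEKU against LPS gives the distance from cells without etoposide. Rel stood at 5625 in LEKU against 3444 in LPS, 1.63 times the LPS value (log2 difference 0.71, counting SE 0.02). The deposited values of Rel were 2815, 3123, 3249 and 2927 in the LPS libraries, 4395, 4926, 5966 and 4775 in the LE libraries and 5104, 5755, 6166 and 6267 in the LEKU libraries, with the LPS columns lowest and those of LE and LEKU overlapping. Here too the columns differ within a condition by the library factor alone, which says nothing of replicate spread. Nfkb2 stood at 9785 against 6418, 1.52 times the LPS value (log2 difference 0.61, counting SE 0.01). Nfkb1 stood at 6122 against 12732, 0.481 times the LPS value (log2 difference -1.06, counting SE 0.01). These were the members past the fold, 2 higher and 1 lower, where 20.5% of all genes were higher and 15.5% lower, or 26.7% and 10.3% with column totals as factors. The difference of Nfkb2 lay just past the fold, and 7 of the 9 alternatives kept it there. It fell under the fold, at 0.55, without a filter and with factors over all genes. Those alternatives share the same factors, which were the planned ones. The other members lay between 0.08 for Nfkbib and 0.47 for Relb, and the median over the 10 was 0.31 against 0.02 for all genes. With column totals as factors, the median of all genes was 0.11 in LE against LPS and 0.20 in LEKU against LPS, and the members shifted up by 0.13 and 0.17 on the log2 scale.

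By the distance between their log2 differences from LPS in LE and LEKU, over the 3 conditions and 10863 genes with a mean value of at least 100, the genes most like Nfkb1 included Trappc9 (distance 0.01) and Pdia4 (0.03). Trappc9 lay at -1.14 in LE and -1.07 in LEKU. Those most like Nfkbie were Cd72, which encodes a B cell surface receptor (distance 0.02), Atl3 (0.03) and Kif3a (0.04), and Cd72 lay at -0.38 in LE and 0.32 in LEKU. Distances of up to 0.1 were found for 39 of these genes from Nfkb1 and for 40 from Nfkbie.

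The rest of the pathway was described with 6 lists, of 85 genes in all, each of which passed the filter on low values. In LE against LPS, 10 of the 85 were higher and 11 lower by 1.5-fold or more, with a median log2 difference of -0.09. In LEKU against LE, 8 were higher and 7 lower, with a median of 0.02. Among all genes kept, 21.9% were higher and 16.2% lower in LE against LPS, and 7.16% and 11.6% in LEKU against LE. Both sets of counts, and those of each list below, can be read against these shares.

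Among the 10 IKK kinases and their activating kinases, 1 was higher and 0 were lower in LE against LPS. It was Ikbke, an IKK-related kinase, which stood at 1228 scaled normalized counts in LPS, 5428 in LE and 3176 in LEKU (log2 differences 2.14 for LE against LPS and -0.77 for LEKU against LE). Of the genes of the IKK complex itself, Chuk lay at 0.56 in LE against LPS, just under the fold. Ikbkb and Ikbkg were nearer to 0, at -0.05 and 0.05. Among the 18 adaptors and ubiquitin ligases upstream of IKK, 4 were lower and 1 higher. Those reported here were Malt1, a protease of antigen receptor signalling, which lay at -0.92 in LE against LPS, Traf5 at -1.54 and Irak2, a kinase of Toll-like receptor signalling, at -0.74, while Myd88, the adaptor of those receptors, was the higher one at 0.65. In LEKU against LE, 1 of the 18 was higher, Rnf31, a subunit of the linear ubiquitin ligase, at 0.59.

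Among 15 other inhibitors of the pathway, 3 were higher and 1 lower in LE against LPS. Nfkbid, a nuclear IκB, stood at 1052 in LPS, 3349 in LE and 2225 in LEKU (log2 difference 1.67 for LE against LPS), and Cyld, a deubiquitinase, at 3694, 7379 and 5336 (log2 difference 1.00). N4bp1 lay at 0.68 and Otulin, a deubiquitinase of linear chains, at -0.84. In LEKU against LE 2 of these were lower and 0 higher, Tnip3 at -0.85 and Nfkbid at -0.59. Of the 5 genes of the IκB ubiquitin ligase, 0 passed the fold in either comparison. In the nuclear DNA damage route to IKK, of 9 genes, 1 was higher and 2 were lower in LE. Pidd1, a p53 target whose product carries the damage signal to NEMO, stood at 919 in LPS, 7520 in LE and 4130 in LEKU (log2 differences 3.03 and -0.86). Parp1 stood at 12485, 5756 and 5651 (log2 difference -1.12 for LE against LPS) and Atm at 8293, 5453 and 7816 (log2 difference -0.60).

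**Figure D5:**
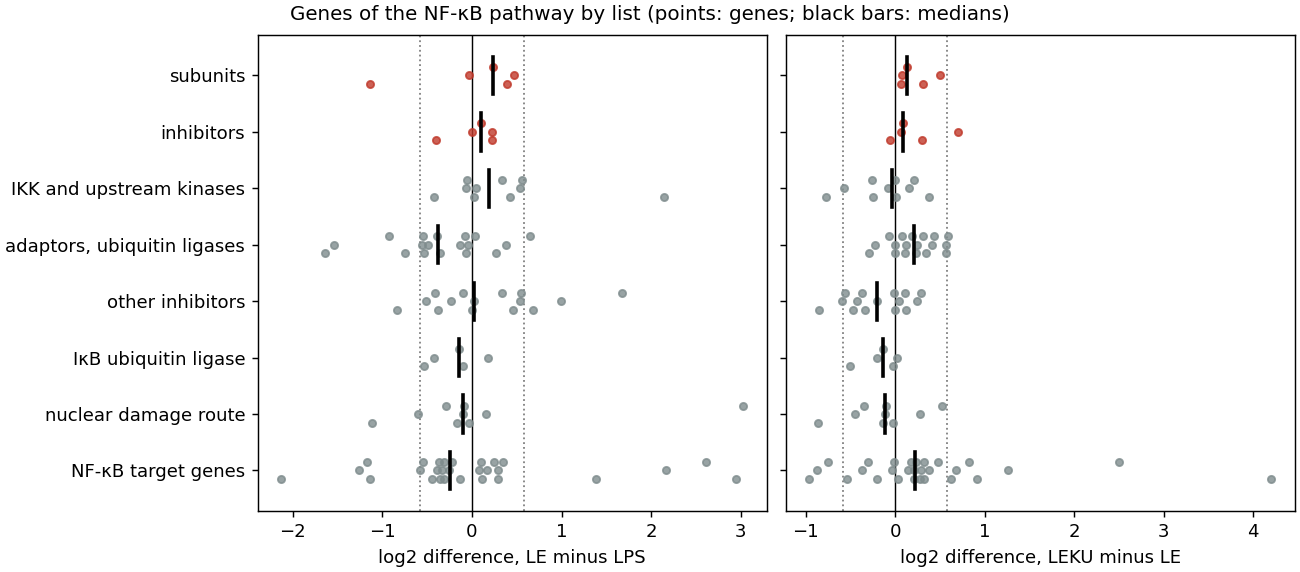
Each point is a gene, placed by its log2 difference (horizontal axis), LE minus LPS on the left and LEKU minus LE on the right, in rows for the members (red) and the 6 other pathway lists (grey), with black bars at the medians and dotted lines at 1.5-fold. The widest rows are the NF-κB target genes, from -2.13 for Ltb to 2.94 for Fas in LE minus LPS, and with Cxcl10 at 4.20 in LEKU minus LE.

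The 28 NF-κB target genes did not share a direction. In LE against LPS, 4 were higher and 4 lower by 1.5-fold or more, and the median was -0.24. Of all genes kept, 21.9% were higher and 16.2% lower by that much. Fas, a death receptor that is also a p53 target, stood at 333 in LPS, 2568 in LE and 1399 in LEKU, Icam1 at 1594, 7139 and 4241, and Il1b at 22.5, 143 and 186 (log2 differences 2.94, 2.16 and 2.61 for LE against LPS). Gadd45b was the other higher target, at 1.38. Ltb, which encodes lymphotoxin β, stood at 1579, 360 and 578 (log2 difference -2.13), and the other lower targets were Myc, Lta and Tnf at -1.26, -1.17 and -1.14. In LEKU against LE, 7 of the 28 targets were higher and 3 lower, where 7.16% of all genes were higher and 11.6% lower. The median of the targets was 0.22. The chemokine genes Cxcl10 and Ccl5 stood at 83.3 and 223 in LE and at 1553 and 1268 in LEKU (log2 differences 4.20 and 2.50), and the cytokine gene Il6 at 207 and 496 (log2 difference 1.26). Irf4, a regulator of B cell and plasma cell fate, was lower, with 11761 in LE and 6036 in LEKU (log2 difference -0.96), as were Fas at -0.88 and Icam1 at -0.75.

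Nfkb1, Nfkb2 and Nfkbib overlap other annotated genes. Nfkb1 overlaps Gm43430 on the same strand. On the opposite strand, Nfkb2 overlaps Psd and a noncoding gene, and Nfkbib overlaps Sirt2 and Ccer2. The strand setting of the counting is not given in the sources used here, and the part of these overlaps in the values was not tested.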

How the data were processed

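PolyA mRNA of LPS-activated splenic B cells was sequenced in 12 libraries, 4 per condition. Per the labels, the authors trimmed reads with Trim Galore and cutadapt 1.2.1, mapped them to GRCm38 with TopHat2 2.0.12, counted them with HTSeq and fitted DESeq2 1.6.3. Each deposited normalized count is a signal per gene and library that equals a mean fitted for its condition, multiplied by a factor of its library. The authors' comparison tables hold a mean signal, which served only as an alternative source of factors, and fold changes, standard errors, test statistics and p-values, which were not used.

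Deposited values were divided by library factors from the median of ratios over the genes with a value of at least 10 in at least 4 columns. The planned factors used all genes above 0, which here are all 29486 genes, near-silent ones included; that version was run as an alternative. Factors ran from 0.817 to 0.943 in LPS, 0.972 to 1.32 in LE and 0.907 to 1.11 in LEKU. Differences are on the scale of log2(value + 1), which understates the change of low genes. No test was run, since limma needs values per replicate. Counting errors come from the summed deposited values of each condition. The 3 comparisons share conditions.

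The members and lists were chosen with earlier results of these data known. Named genes were all members, 3 p53 targets, up to 4 genes per pathway list and comparison with the largest differences past 1.5-fold and a mean of at least 100, and the 3 genes nearest in pattern to the member with the largest difference in each of LE against LPS and LEKU against LE. The IKK complex genes, Myd88, Gadd45b, Myc, Lta, Tnf and the markers were named outside that rule, after their values were seen. Results for some genes that the rule names are not reported here. Alternatives were TMM factors, column totals, factors from the authors' mean signal, quantile normalization, pseudocounts of 0.5 and 5, no filter, a minimum of 50 and a fold of 2. The main factors, over the genes kept, depart from the plan. The planned factors over all genes became an alternative, and the exon union as length was added, after seeing the data. The functions were tested on simulated data. Coordinates, spans and transcript lengths are from GENCODE M21 (GRCm38), and spans were found for 99.5% of the genes kept. Values were computed with pandas 2.3.3 and numpy 2.4.6 under Python 3.11.15, and plotted with matplotlib 3.10.9.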

Additional observations from a re-analysis of the deposited data

How the results depend on the processing

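Of the 30 member differences (10 members in 3 comparisons), 27 kept 1 sign under all 9 alternatives of scaling, pseudocount and filter. The exceptions were Relb and Nfkbib in LE against LPS and Tnfaip3 in LEKU against LE. The 9 are not separate checks: no filter and factors over all genes gave the same values for every member. The pseudocounts of 0.5 and 5 could move members at these levels only slightly, with Nfkb1 at -1.137 in LE against LPS under both. The number of members higher by the fold in LE against LPS was 0, and 1 with column totals and with quantile normalization (Nfkb2). In LEKU against LE it was 1, and 0 at a fold of 2. In LEKU against LPS it was 2, with 5 after quantile normalization, 3 with column totals, 1 with factors over all genes, 1 without a filter and 0 at a fold of 2. At a fold of 2 the shares of all genes higher and lower were 14.2% and 6.02% in LE against LPS, 1.77% and 4.59% in LEKU against LE, and 11.1% and 5.91% in LEKU against LPS. Without a filter, 14.5% were higher in LE against LPS, 7.64% lower in LEKU against LE and 12.6% higher in LEKU against LPS. With column totals, 10.3% were lower in LEKU against LPS. With factors over all genes, 19.8% were higher and 20.0% lower in LE against LPS. Without a filter, the library factors also came from all genes, and since all 10 members pass the filter, the change of their count there is that of the factors. The changes at a fold of 2 follow from the higher limit, and the cause of the others was not tested.

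No paired analysis was possible because the deposited columns hold 1 fitted mean per condition and carry no values of single replicates, and leaving out each replicate was not run for the same reason. With no replicate spread in the columns, the counting error shows only what depth limits.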
